A study of Mus musculus with 2 samples.

Results

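Lef1, Tcf7, Klf2, Bach2, Satb1, Dapl1 and Igfbp4, 7 of the 26981 genes listed for the study, were described as regulators or markers of naive and quiescent T cells in visceral adipose tissue (VAT). The genes were chosen by name, with earlier results of these data known. Their unique molecular identifiers (UMIs, the distinct mRNA molecules counted) were read in the cells kept. These had at least 500 gene UMIs, at least 200 genes and at most 25% mitochondrial UMIs. CD45+ immune cells had been separated with magnetic beads from the VAT of male wildtype C57BL/6 mice of 15 weeks, kept specific pathogen-free and given normal water (NW) or drinking water with antibiotics (ABX). The cells were digested from the tissue, stained with oligonucleotide-tagged antibodies (AbSeq) and captured in BD Rhapsody microwells, with 1 library per condition. The labels do not say how many mice gave each library, so the spread between mice is unknown. The study used the comparison to ask how loss of the gut microbiota alters the immune cells of VAT.

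Naive T cells recirculate between blood and lymph nodes in a resting state, and they carry the homing receptor CD62L, with which they enter lymph nodes. Activated and tissue-dwelling T cells generally shed CD62L and carry more of the adhesion receptor CD44. Tcf7 and Lef1 encode TCF1 and LEF1, related HMG-box factors of T cell development and of naive and memory T cells. Satb1 encodes a chromatin organizer that shapes gene expression in the thymus. Klf2 encodes a zinc finger factor that keeps T cells quiescent and drives S1pr1. Bach2 encodes a repressor that restrains effector differentiation in T cells and is also a regulator of B cell development. Dapl1 encodes a small protein related to the death-associated protein DAP, and Igfbp4 a secreted protein that binds insulin-like growth factors. Both mRNAs are found in naive T cells, and Igfbp4 is also made by many cells outside the lymphoid lineage.

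In the mouse build GRCm38 (GENCODE annotation) all 7 were protein-coding genes. Lef1 lay on chromosome 3 from 131110471 to 131224356 on the plus strand and Tcf7 on chromosome 11 from 52252371 to 52283014 on the minus strand. Klf2 lay on chromosome 8 from 72319033 to 72321656 (plus strand), and Bach2 on chromosome 4 from 32238804 to 32586108 (plus strand). Satb1 lay on chromosome 17 from 51736187 to 51833290 (minus strand). Dapl1 lay on chromosome 2 from 59484653 to 59505020 and Igfbp4 on chromosome 11 from 99041244 to 99054392, both on the plus strand. The promoters of Dapl1 and Igfbp4 are shown because these 2 genes had the largest CD62L differences among the 7 in CD4+ T-like cells, once cells with UMIs of other lineages were left out. Each is the 250 bases before the start site (RefSeq, GRCm38.p6), for Dapl1 chr2:59484403-59484652 and for Igfbp4 chr11:99040994-99041243, both on the plus strand. Capitals mark the TATA box letters TATAAA in both and, in Dapl1, the FOXO motif TGTTTAC on the opposite strand.
Dapl1: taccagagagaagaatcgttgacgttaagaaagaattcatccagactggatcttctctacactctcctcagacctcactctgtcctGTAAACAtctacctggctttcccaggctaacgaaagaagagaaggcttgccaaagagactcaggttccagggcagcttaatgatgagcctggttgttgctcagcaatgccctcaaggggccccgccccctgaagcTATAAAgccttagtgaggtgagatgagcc
Igfbp4: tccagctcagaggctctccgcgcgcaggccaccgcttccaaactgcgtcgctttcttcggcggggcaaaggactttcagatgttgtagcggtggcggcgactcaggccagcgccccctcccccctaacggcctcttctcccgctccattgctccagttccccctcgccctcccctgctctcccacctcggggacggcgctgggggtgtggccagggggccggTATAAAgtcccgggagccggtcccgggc
The TATAAA match began 29 bases before the start of Dapl1 and 28 bases before that of Igfbp4, and the FOXO letters began 164 bases before the start of Dapl1. Both strands were searched for 4 motifs, and no matches overlapped in these promoters. Among 32851 such windows of all genes, 12.4% held TATAAA, 3.17% TGTTTAC, 13.8% the TCF/LEF letters CTTTGA and 28.1% the KLF letters CCACCC. Of the 15 windows of the 7 genes, 4 held TATAAA, 1 TGTTTAC, 2 CTTTGA and 8 CCACCC. Several of these windows are alternative starts of the same gene and some overlap. A site can therefore be counted in more than 1 window, as a CCACCC site of Lef1 was, and the counts show no enrichment. These are matches of letters and not measurements of binding.

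The NW library kept 12474 of 17662 barcodes with a median of 5092 gene UMIs, and the ABX library kept 12724 of 17785 with a median of 3845.5. Both libraries shared 371 barcodes, 196 of them among the cells kept. Clusters were built without the 7 genes and without the CD62L antibody, so that neither the levels by cell type nor the CD62L comparison used what defined the clusters. They were named "-like" from marker genes. The markers of the labelled lineage were detected as follows: Cd4 in 73.2% of CD4+ T-like cells, Foxp3 in 80.1% of Treg-like, Trdc in 88.8% of gdT-like, Ncr1 in 77.8% of NK-like and Il1rl1 in 90.8% of ILC2-like cells. CD8+ T-like cells went less well with their name, since Cd8a was detected in 38.0% of them and the macrophage gene C1qa in 42.4%. C1qa was also detected in 27.1% of CD4+ T-like cells. The NKT-like cluster carried Cd3e in 55.1%, Ncr1 in 46.3% and Zbtb16, the defining factor of NKT cells, in only 4.35% of its cells. Its TCR-beta antibody count had a median of 10 UMIs, near that of NK-like cells (8) and far from that of CD4+ T-like cells (33), so these values go against the name, which is kept here only as a label of the cluster. Cells with at least 10 UMIs of B cell, macrophage, dendritic, endothelial or fibroblast markers made up 26.9% of NW and 23.5% of ABX CD4+ T-like cells, 44.5% and 39.5% of CD8+ T-like cells, and 3.41% and 4.92% of NK-like cells. These cells were left out as an alternative for the levels in T-like types, the CD62L comparison and the ratios of ABX to NW.

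Across lymphocyte types, the level of each gene was its UMIs per 10000 gene UMIs of that type in a library, with an exact 95% Poisson interval. All intervals of levels, ratios and shares cover counting error only. Levels were compared between cell types for 1 gene at a time. Over both libraries, the median gene of the 7 was 1.42 higher on the log2 scale in CD4+ and CD8+ T-like cells together than in the other lymphocyte-like cells, and 5 of the 7 were above 0. Those other cells were Treg-like, gdT-like, NKT-like, NK-like, ILC2-like, B cell-like and plasma cell-like cells, without the unnamed Il18r1-led ones. Their UMIs were summed, so the value depends on the mix of types, with 2128 ILC2-like cells among them. It does not compare T-like cells with each single type. The value of 1.42 is a description without a test, and it ranged from 1.04 to 1.70 under other settings.

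Lef1 was highest in Vpreb3-led B cell-like cells, at 3.09 (2.57 to 3.69) in NW and 2.61 (1.76 to 3.73) in ABX, on 50 and 21 cells. NKT-like cells, whose intervals overlapped with these, followed at 2.54 (2.22 to 2.88) and 2.06 (1.84 to 2.30), NK-like cells at 1.79 and 1.5, CD8+ T-like cells at 1.38 (1.2 to 1.59) and 1.88 (1.69 to 2.08), and CD4+ T-like cells at 1.33 (1.22 to 1.45) and 1.94 (1.8 to 2.10). The NKT-like intervals lay above the NK-like ones in both libraries, and those of CD8+ and CD4+ T-like cells overlapped in each library. The NK-like value lay above the intervals of both these T-like types in NW and below them in ABX, so this order differed between the libraries. Lef1 was then 0.630 to 0.944 in gdT-like, Treg-like and the unnamed Il18r1-led cells, 0.254 and 0.388 in ILC2-like cells, and at most 0.143 in mature B cell-like and plasma cell-like cells. Without cells with at least 10 UMIs of other lineages, the order changed. Lef1 was then 3.37 (2.88 to 3.92) and 3.40 (3.01 to 3.83) in CD8+ T-like cells and 2.12 (1.92 to 2.33) and 2.95 (2.71 to 3.21) in CD4+ T-like cells, against 2.75 and 2.25 in NKT-like and 1.85 and 1.52 in NK-like cells. CD8+ T-like cells thus reached the level of the Vpreb3-led cells, to which this filter was not applied because B cell markers are counted in it. The share of CD4+ T-like cells with a Lef1 UMI was 35.2% for NW and 43.3% for ABX (median depth 3672 and 3368.5 UMIs), against 1.70% and 2.45% for macrophage-like cells (5681 and 4116 UMIs), which should lack it. Thinned to 1000 UMIs per cell, the shares in CD4+ T-like cells were 13.6% and 19%.

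Tcf7 was highest in CD4+ T-like cells (4.31 in NW, 4.10 to 4.52, and 5.20 in ABX, 4.96 to 5.45), NK-like cells (4.64 and 4.03) and Il18r1-led cells (4.39 and 4.27). Their ranges over both libraries overlapped, but within ABX the CD4+ T-like interval lay above the values of NK-like and Il18r1-led cells. NKT-like cells held 3.90 and 2.78, CD8+ T-like cells 2.74 and 3.23, and gdT-like cells 2.68 and 3.12. The NKT-like value was thus above those of CD8+ T-like and gdT-like cells in NW and below them in ABX. With the same cells left out, Tcf7 was 7.07 (6.71 to 7.45) and 7.88 (7.49 to 8.29) in CD4+ T-like and 6.36 (5.68 to 7.10) and 5.63 (5.12 to 6.17) in CD8+ T-like cells, and the intervals of both types then lay above those of NK-like (4.74 and 4.17) and NKT-like cells (4.18 and 2.98) in each library. Treg-like cells stood well below the other T-like types, at 0.398 (0.308 to 0.505) in NW and 1.56 (1.24 to 1.93) in ABX. B cell-like, plasma cell-like and ILC2-like cells held at most 0.426.

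Satb1 was highest in NK-like cells (4.25 and 3.87), followed by Ighd-led B cell-like (3.39 and 2.25) and NKT-like cells (2.99 and 2.75), whose ranges overlapped. The NW intervals of NK-like and Ighd-led cells also overlapped. Il18r1-led cells followed at 1.85 and 2.25, and ILC2-like, CD8+ T-like, gdT-like, Vpreb3-led B cell-like and CD4+ T-like cells formed a run of overlapping values from 0.884 to 1.83. Satb1 in CD4+ T-like cells stood at 0.884 (0.794 to 0.983) in NW and 1.73 (1.59 to 1.87) in ABX. Treg-like cells held 0.160 and 0.722. After the filter on other lineages, Satb1 was 2.91 (2.45 to 3.42) and 2.53 (2.19 to 2.90) in CD8+ T-like cells, which overlapped with NKT-like cells (3.18 and 3.06), and 1.31 and 2.53 in CD4+ T-like cells.

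Klf2 and Bach2 were led by B cell-like types among lymphocytes. Klf2 was 7.89 and 6.86 in Ms4a1-led and 7.63 and 5.38 in Ighd-led B cell-like cells, against 3.52 (3.34 to 3.72) and 3.39 (3.2 to 3.60) in CD4+ T-like, 3.46 and 3.15 in CD8+ T-like and 4.27 and 3.10 in NK-like cells. Klf2 is also used by myeloid and endothelial cells, and 43.6% of NW and 31.4% of ABX macrophage-like cells had a UMI, with a level of 2.13 and 1.61. Bach2 was 7.20 (6.38 to 8.08) and 11.7 (9.77 to 13.8) in Vpreb3-led B cell-like cells and 3.39 and 3.27 in the Ighd-led ones. It was 1.42 in ILC2-like cells of both libraries and 0.460 and 0.757 in CD4+ T-like cells. After the same filter, CD4+ T-like cells had 3.72 and 4.07 for Klf2 and 0.558 and 1.02 for Bach2.

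Dapl1 was the gene most restricted to T-like cells by its counts, although few UMIs stood behind it. CD8+ T-like cells held 0.179 (0.117 to 0.262) in NW and 0.460 (0.368 to 0.567) in ABX, and CD4+ T-like cells 0.0818 (0.0559 to 0.115) and 0.297 (0.242 to 0.361), on 32 and 101 UMIs. After the filter these levels were 0.485 and 0.822 in CD8+ and 0.111 and 0.493 in CD4+ T-like cells. In NK-like cells it was not detected in either library (0 of 293 and 0 of 325 cells, which allows shares of cells with a UMI of up to 1.02% and 0.923%). Macrophage-like cells gave 0.00114 and 0.00705. The shares of cells with a Dapl1 UMI were 1.89% and 6.45% for CD4+ T-like cells of NW and ABX, and 0.0707% and 0.221% for macrophage-like cells.

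Igfbp4 had the opposite distribution. Its level was 5.36 (5.28 to 5.44) in NW and 3.70 (3.62 to 3.78) in ABX macrophage-like cells, where 77.3% and 62.1% of cells had a UMI. CD8+ T-like cells held 2.37 (2.13 to 2.63) and 1.52 (1.35 to 1.70) and CD4+ T-like cells 1.36 (1.25 to 1.48) and 1.09 (0.981 to 1.21). NK-like cells held 0.283 and 0.187. Without cells with UMIs of other lineages, Igfbp4 was 0.787 and 0.723 in CD8+ and 0.714 and 1.21 in CD4+ T-like cells. The share of CD4+ T-like cells with an Igfbp4 UMI, 20.9% and 19.4% at median depths of 3672 and 3368.5 UMIs, was below that in macrophage-like cells. Its level in T-like cells depended on the cells with UMIs of other lineages, as the values by CD62L show.

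**Figure D1:**
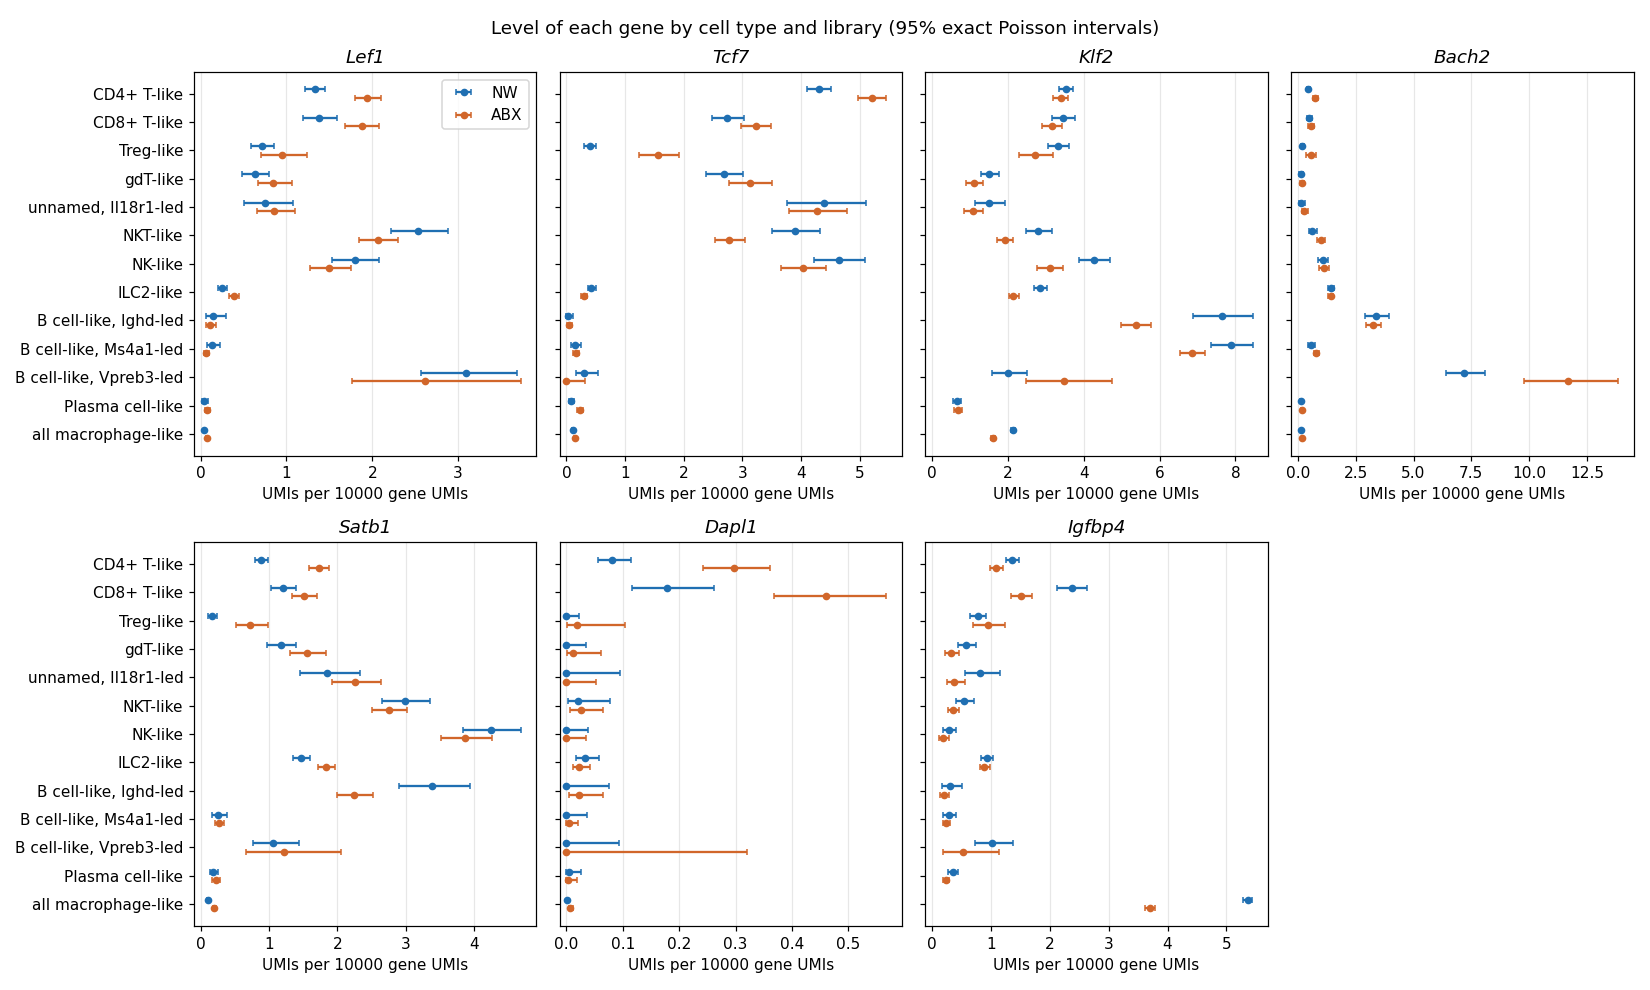
UMIs per 10000 gene UMIs of each of the 7 genes (x axis, linear, each panel with its own scale) in 12 lymphocyte types and in all macrophage-like cells (y axis), with 1 point per library (NW blue, ABX orange) and exact 95% Poisson intervals as bars. Lef1 and Tcf7 are shared by T-like, NKT-like and NK-like cells, Klf2 and Bach2 peak in B cell-like types, Dapl1 is near 0 outside CD4+ and CD8+ T-like cells, and Igfbp4 is highest in macrophage-like cells.

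CD62L antibody counts separated the T-like cells by a measurement that is independent of mRNA. Cells with at least 20 CD62L antibody UMIs (CD62L-high) made up 7.04% (56 of 795, exact 95% binomial interval 5.36% to 9.05%) of NW and 18.4% (137 of 744, 15.7% to 21.4%) of ABX CD4+ T-like cells. The shares among CD8+ T-like cells were 13.4% (39 of 290, 9.74% to 17.9%) and 19.4% (80 of 413, 15.7% to 23.5%). UMIs were summed per library, cell type and CD62L class, and CD62L-high was compared with CD62L-low in edgeR's quasi-likelihood test over 9317 genes, with the library as a block. The 2 libraries are the replicates of this comparison, and its p-values measure only the spread between their sums.

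In CD4+ T-like cells, 6 of the 7 genes were higher in CD62L-high cells (adjusted p under 0.05), where 0.762% of all genes tested were called higher. The exception was Bach2. Among CD8+ T-like cells, 5 of the 7 were higher, against 2.83% of all genes, the exceptions being Bach2 and Igfbp4. Without the library as a block, 3 of the 7 passed in each cell type. Since the 7 genes were chosen with earlier results of these data known, these counts are a description and not independent support.

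Lef1 in CD4+ T-like cells was 3.03 per 10000 in CD62L-high and 1.16 in CD62L-low cells of NW, and 4.78 and 1.32 in those of ABX. Both CD62L-high values lay above both CD62L-low values, with a log2 ratio of 1.73 ± 0.16 (SE, edgeR adjusted p = 5.87e-05). For CD8+ T-like cells Lef1 was 3.16 and 1.05 in NW and 4.15 and 1.15 in ABX (log2 ratio 1.82 ± 0.18, adjusted p = 7.04e-05). Tcf7, its relative, had a smaller contrast in CD4+ T-like cells, 5.47 and 4.19 in NW and 8.40 and 4.50 in ABX (0.75 ± 0.15, adjusted p = 0.0212), and here the NW CD62L-high value lay only just above the ABX CD62L-low value. Tcf7 in CD8+ T-like cells was 5.07 and 2.30 in NW and 5.86 and 2.38 in ABX (1.30 ± 0.17, adjusted p = 0.000308). The difference between the CD4+ and CD8+ contrasts of Tcf7 was -0.55 and did not pass the test (adjusted p = 0.584).

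Satb1 in CD4+ T-like cells was 3.2 in CD62L-high and 0.655 in CD62L-low cells of NW and 4.40 and 1.14 in those of ABX, without overlap (log2 ratio 2.19 ± 0.18, adjusted p = 1.2e-05). The CD8+ T-like levels were 2.90 and 0.882, and 3.08 and 1.01 (1.73 ± 0.20, adjusted p = 0.000188). Klf2 had a smaller contrast than Satb1, with 5.18 and 3.36 in NW and 5.22 and 2.99 in ABX CD4+ T-like cells (0.80 ± 0.14, adjusted p = 0.00699) and 5.33 and 3.10, and 4.93 and 2.58, in CD8+ T-like cells (0.94 ± 0.14, adjusted p = 0.00105). Its CD62L-high levels were nearly equal in the 2 libraries.

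Dapl1 had the largest ratio of the 7. In CD4+ T-like cells it was 0.510 in CD62L-high and 0.0393 in CD62L-low cells of NW (18 and 14 UMIs) and 1.27 and 0.0826 in those of ABX (78 and 23 UMIs), for a log2 ratio of 3.93 ± 0.38 (adjusted p = 6.66e-05). The CD8+ T-like levels were 0.346 and 0.147 in NW (8 and 18 UMIs) and 1.45 and 0.140 in ABX (67 and 20 UMIs), for 2.75 ± 0.40 (adjusted p = 0.000798). The CD8+ contrast of Dapl1 was thus carried mostly by the ABX library, with 1.24 in NW alone and 3.38 in ABX alone. Bach2 also depended on the library. In CD4+ T-like cells it was 0.595 and 0.447 in NW and 1.60 and 0.571 in ABX (1.23 ± 0.29, adjusted p = 0.0524), and in CD8+ T-like cells 0.476 and 0.498 in NW and 1.09 and 0.398 in ABX (0.95 ± 0.37, adjusted p = 0.178). Without cells with at least 10 UMIs of other lineages, Bach2 in CD4+ T-like cells passed the test (1.49 ± 0.25).

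Igfbp4 was the only one of the 7 genes whose contrast passed the test of a difference between CD4+ and CD8+ T-like cells. Its level in CD4+ T-like cells was 2.63 in CD62L-high and 1.24 in CD62L-low cells of NW and 3.16 and 0.632 in those of ABX (log2 ratio 1.82 ± 0.23, adjusted p = 0.000706). In CD8+ T-like cells it was 1.60 and 2.52 in NW and 1.09 and 1.66 in ABX, for a ratio in the other direction that did not pass the test (-0.55 ± 0.27, adjusted p = 0.301). The difference of both contrasts was 2.37 ± 0.35 (adjusted p = 0.0385), and 0.0429% of all genes tested were called in this difference. Macrophage marker UMIs were lower in CD62L-high than in CD62L-low cells of both cell types. They summed to 54.8 per 10000 in CD62L-high and 104 in CD62L-low CD8+ T-like cells of NW, and to 23.1 and 69.7 in those of ABX. In CD4+ T-like cells these sums were 26.3 and 45.3 in NW and 10.9 and 31.6 in ABX. Without cells with at least 10 UMIs of other lineages, Igfbp4 in CD8+ T-like cells was 1.30 in CD62L-high and 0.632 in CD62L-low cells of NW and 1.26 and 0.463 in those of ABX, so that its contrast turned to 1.42 ± 0.32 and passed the test (adjusted p = 0.00576, with a range of 0.00576 to 0.858 over the settings run). For CD4+ T-like cells left after the same filter it was 4.29 and 0.419 in NW and 4.23 and 0.323 in ABX (3.63 ± 0.21). The difference between the CD4+ and CD8+ contrasts was 2.21 after the filter and passed the test, but it did not pass under 6 of the other settings run, among them a limit of 10 antibody UMIs, where it was 1.26. In the remaining CD4+ T-like cells, 7 of the 7 genes were higher in CD62L-high cells, where 2.72% of the 6946 genes tested were, and in the remaining CD8+ T-like cells 6 of the 7, all but Bach2, where 2.49% were.

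**Figure D2:**
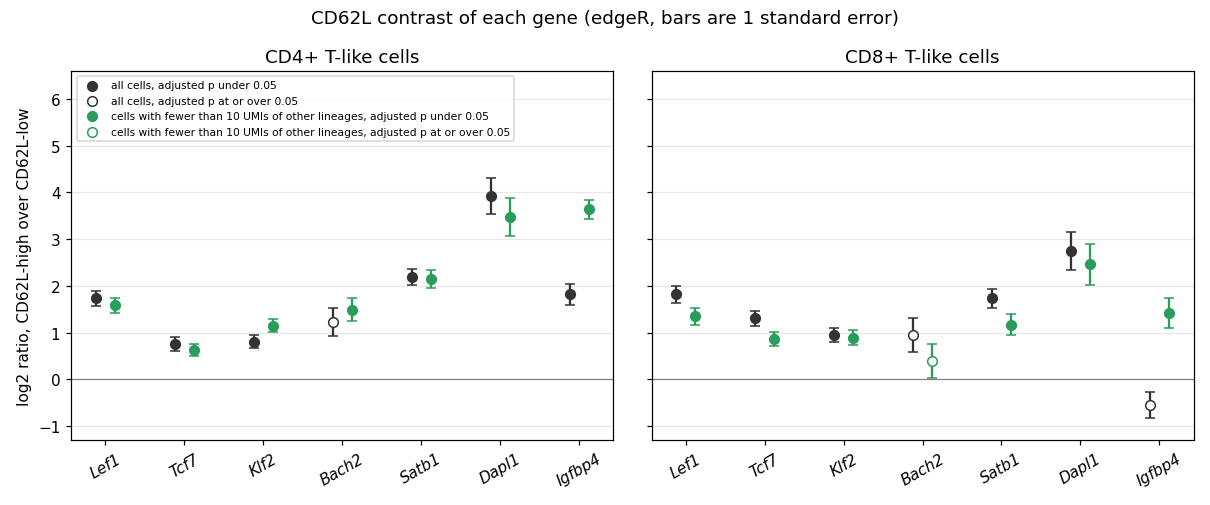
Log2 ratio of CD62L-high to CD62L-low cells (y axis) for each of the 7 genes (x axis) in CD4+ (left) and CD8+ (right) T-like cells, from all cells (black) and from cells with fewer than 10 UMIs of other lineages (green). Bars are 1 standard error of the edgeR fit, and filled points passed an adjusted p of 0.05. Igfbp4 moves from -0.55 to 1.42 in CD8+ T-like cells when cells with UMIs of other lineages are left out.

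**Figure D3:**
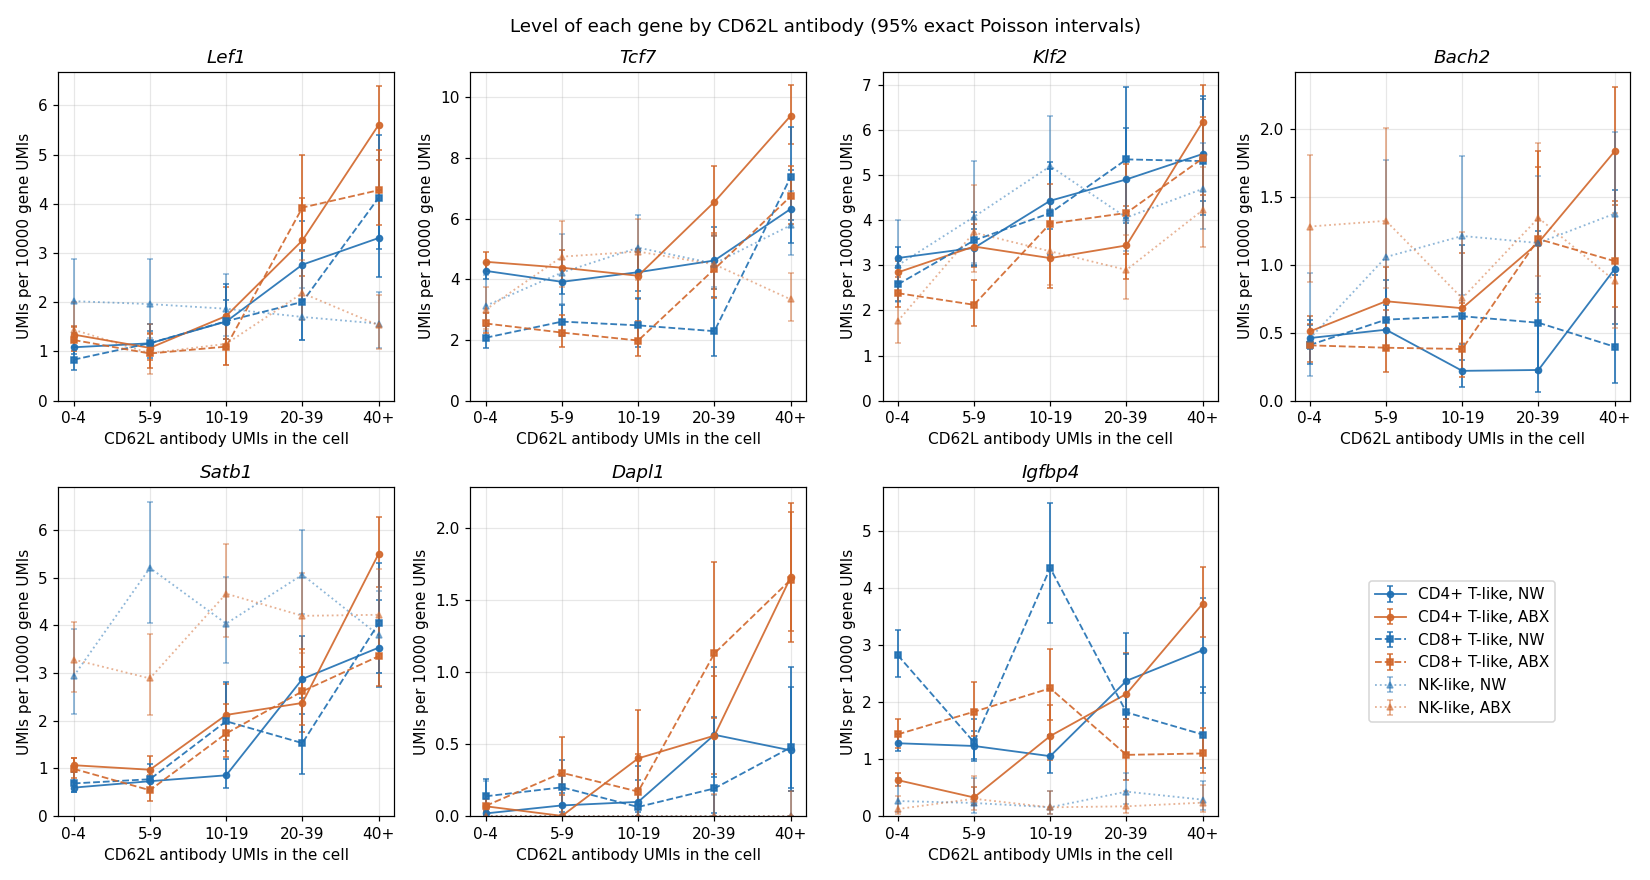
UMIs per 10000 gene UMIs of each of the 7 genes (y axis, linear from 0) by the number of CD62L antibody UMIs in the cell (x axis, 5 classes), for CD4+ T-like (solid), CD8+ T-like (dashed) and NK-like cells (dotted) of NW (blue) and ABX (orange), with exact 95% Poisson intervals. In CD4+ T-like cells Lef1 goes from 1.08 in NW and 1.34 in ABX at 0 to 4 antibody UMIs to 3.30 and 5.60 at 40 and more. In NK-like cells its difference by CD62L is smaller, although in ABX Lef1 is higher in CD62L-high than in CD62L-low cells.

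The levels climbed with the antibody over 5 classes of CD62L. Lef1 in NW CD4+ T-like cells was 1.08, 1.16, 1.61, 2.76 and 3.30 from the class of 0 to 4 antibody UMIs to that of 40 and more, and 1.34, 1.07, 1.72, 3.25 and 5.60 in ABX. Both runs were flat below 10 antibody UMIs. Dapl1 in ABX CD4+ T-like cells went from 0.0668 in the lowest class to 1.66 (1.28 to 2.11) in the highest, where 34.7% of 95 cells had a UMI, and in NW from 0.0172 to 0.456 (0.197 to 0.898), where 14.8% of 27 cells did.

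The CD62L-high T-like cells were not uniform. They were split at the median of their CD44 antibody count (66 UMIs in CD4+ and 95 in CD8+ T-like cells), and this split is a description without a test. Among CD62L-high CD4+ T-like cells of both libraries, Lef1 was 8.32 in the 96 cells below the CD44 median and 2.20 in the 97 at or above it. The same pair of levels was 10.9 and 5.67 for Tcf7, 7.70 and 2.23 for Satb1, 8.12 and 3.85 for Klf2, 2.51 and 0.637 for Bach2, 2.32 and 0.379 for Dapl1, and 5.94 and 1.59 for Igfbp4. All 7 intervals of the ratio lay above 0. Cells with low CD44 were thus the ones with the high levels, and the ones at or above the median had more UMIs per cell (5336 against 3061). The split used all cells, and whether it holds without cells with UMIs of other lineages was not tested. Median CD44 of NW CD62L-high CD4+ T-like cells was 162.5 UMIs, and 104 without cells with at least 10 UMIs of other lineages. In ABX these medians were 46 and 40. In CD62L-high CD8+ T-like cells the split gave 7.11 and 2.08 for Lef1, 8.12 and 4.26 for Tcf7, 2.05 and 0.574 for Dapl1, and 2.13 and 0.795 for Igfbp4, on 59 and 60 cells. It gave 4.73 and 2.12 for Satb1 and 1.30 and 0.663 for Bach2, and its ratio was smallest for Klf2 (6.19 and 4.46). Within ABX alone the intervals of the ratio for Klf2 (-0.09 to 0.69) and Bach2 (-0.36 to 1.36) included 0, and within NW alone that for Igfbp4 did (0.36, -0.81 to 1.42), so that its CD8+ split came from ABX (2.62). Of the CD62L-high CD4+ T-like cells, 14 of 56 in NW and 82 of 137 in ABX were below the CD44 median.

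Several of the genes were often detected in the same cell. No expectation from the share of each gene was computed, so these counts do not show joint detection beyond that of the single genes. They are from all cells, without thinning or the filter on other lineages. At least 4 of the 7 had a UMI in 55.4% (31 of 56, 41.5% to 68.7%) of NW and 70.1% (96 of 137, 61.7% to 77.6%) of ABX CD62L-high CD4+ T-like cells, against 12.6% (10.3% to 15.2%) and 14.8% (12.1% to 17.9%) of CD62L-low ones. Median depth was 4288.5 and 3470 UMIs in the former and 3657 and 3321 in the latter. The CD8+ T-like shares were 61.5% and 68.8% of CD62L-high and 12.4% and 9.61% of CD62L-low cells. The pattern was not particular to these types. For NKT-like cells the shares were 51.0% and 24.3% of CD62L-high and 11.8% and 10.6% of CD62L-low cells. NK-like cells had 30.3% and 17.7% of CD62L-high and 18.0% and 9.74% of CD62L-low cells. Macrophage-like cells had 1.13% and 1.17%, at greater depth, and 7.95% and 13.8% when CD62L-high. Lef1 and Tcf7 were both detected in 58.9% and 65.7% of CD62L-high CD4+ T-like cells and in 25.6% and 29.0% of CD62L-low ones. In the CD62L-high ones of ABX, Lef1 was detected in 71.5% and Tcf7 in 90.5%.

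**Figure D4:**
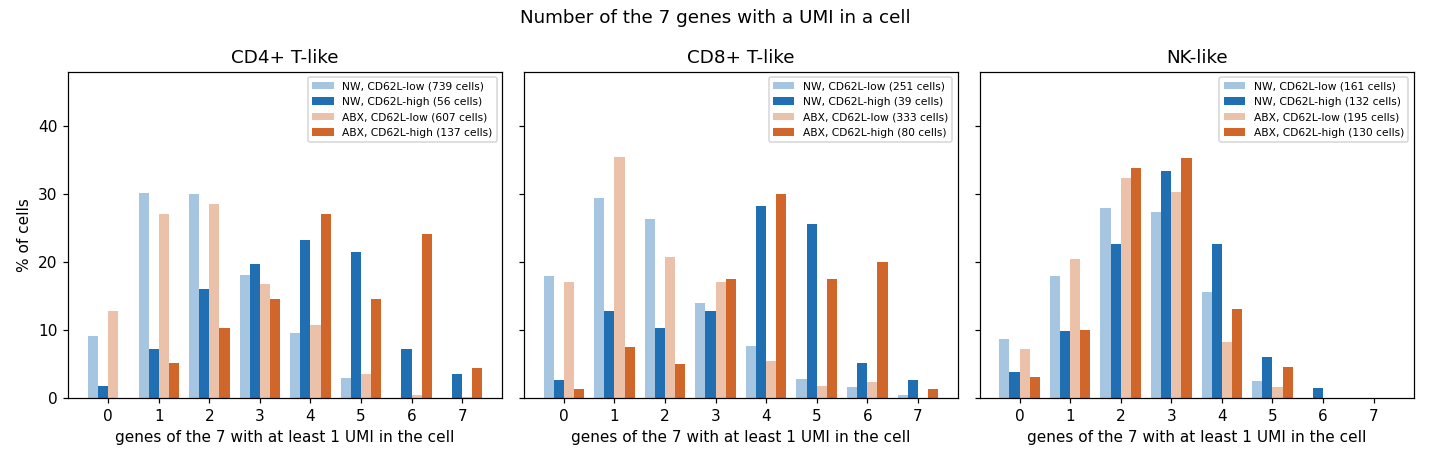
Percent of cells (y axis, from 0) by how many of the 7 genes had at least 1 UMI in the cell (x axis), in CD4+ T-like, CD8+ T-like and NK-like cells, for CD62L-low (pale) and CD62L-high (full color) cells of NW (blue) and ABX (orange), with the number of cells in the legend. CD62L-high T-like cells center on 4 genes and CD62L-low ones on 1 or 2, while both classes of NK-like cells center on 2 or 3.

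The association with CD62L was not the same in other lymphocytes, where values are given without a test. NK-like cells were often CD62L-high (132 of 293 in NW and 130 of 325 in ABX), yet the log2 ratio of CD62L-high to CD62L-low cells over both libraries was 0.19 (95% counting interval -0.13 to 0.51) for Lef1, 0.13 for Tcf7, 0.21 for Klf2, 0.20 for Bach2 and 0.20 for Satb1. All 5 intervals included 0, although in ABX alone Lef1 was 0.62 (0.16 to 1.09). In NKT-like cells Tcf7 was 7.54 in CD62L-high and 2.91 in CD62L-low cells of NW and 5.45 and 2.19 in those of ABX (log2 ratio 1.36, 1.15 to 1.57), and Klf2 4.72 and 2.28, and 3.18 and 1.63 (1.03, 0.77 to 1.29). In Ms4a1-led B cell-like cells Klf2 was lower in CD62L-high cells, at 5.59 and 8.11 in NW and 4.93 and 7.14 in ABX (-0.55, -0.76 to -0.35), and Bach2 was higher (0.95, 0.50 to 1.38). Only 6.20% of NW (24 of 387) and 9.58% of ABX Treg-like cells (16 of 167) were CD62L-high. Tcf7 was 0.860 in CD62L-high and 0.352 in CD62L-low Treg-like cells of NW and 2.99 and 1.40 in those of ABX, so the CD62L-high levels rest on few cells.

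Other genes of the naive program moved with the 7 in the CD62L comparison. The lists used here were also chosen with earlier results of these data known, so their counts are a description. Of 16 other naive and quiescence genes, 10 were higher and 0 lower in CD62L-high CD4+ T-like cells, where 0.762% and 0.848% of all genes tested were. The median log2 ratio of the 16 was 0.80 against 0.0029 over all genes tested. Among the 10 were the lymph node homing receptor Ccr7 (3.08), the actin cross-linker Actn1 (2.41) and Nsg2 (2.01), all of which passed. In CD8+ T-like cells 9 of the 16 were higher, where 2.83% of all genes were, and 0 lower, with a median of 0.76. Of 6 partners of TCF1 and memory genes, 1 was higher in each cell type, where 0.762% and 2.83% of all genes were. It was the costimulatory receptor Slamf6, with log2 ratios of 0.85 in CD4+ and 1.48 in CD8+ T-like cells. Id3 had 1.13 in CD4+ T-like cells and did not pass. Of 18 effector and tissue residency genes, 5 were lower and 0 higher in CD62L-high CD4+ T-like cells (median -0.64), against 0.848% of all genes called lower. They included the chemokine receptor Cxcr6 (-1.69), the nuclear receptor Rora (-1.01) and the factor Maf, while Prdm1, which encodes BLIMP1, had -1.61 and did not pass. Of the same 18 genes, 4 were lower in CD8+ T-like cells, where 2.9% of all genes were, and 1 was higher, the integrin gene Itgae, which encodes CD103 (1.75). Without cells with at least 10 UMIs of other lineages, 12 of the 17 effector genes tested were lower in CD4+ and 8 in CD8+ T-like cells, where 1.91% and 1.47% of all genes were, and 0 were higher. Itgae was then not tested, since its counts were too low. None of 11 dissociation stress genes passed the edgeR test in either cell type. At an unadjusted p under 0.05, 4 were lower in each, where 633 in CD4+ and 889 in CD8+ T-like cells of all 9317 genes tested were. With the same cells left out, 1 of them passed as lower in CD8+ T-like cells, the heat shock gene Hspa1b (-0.48).

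The genes most alike to each of the 7 were ranked by Pearson's r of log2(level + 0.1) over 22 points, which were 11 lymphocyte types in each of 2 libraries and share those libraries and their depth. Among 10132 genes, the 3 most like Lef1 were Atp5h (0.95), Utrn (0.90) and Atp1b3 (0.90), and those most like Tcf7 were Cxcr3 (0.95), Myo1f (0.94) and Slc20a1 (0.94). For Klf2 they were Alkbh1 (0.92), Grb2 (0.90) and Baz1a (0.89), for Bach2 Cd72 (0.91), Tra2a (0.89) and Rbm17 (0.89), and for Satb1 Evl (0.87), Cstf2t (0.86) and Pag1 (0.85). Igfbp4 was most like Tmem86a (0.92), Csf2ra (0.91) and Rin2 (0.91). Dapl1, on 283 UMIs, was most like C3 (0.94), Pla2g2d (0.90) and Cxcl9 (0.87). None of the 7 ranked among the 3 genes most like another.

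ABX and NW were compared by values only, since each was 1 library. In CD4+ T-like cells the log2 ratio of ABX to NW was 0.55 (95% counting interval 0.38 to 0.71) for Lef1, 0.27 (0.18 to 0.37) for Tcf7, 0.97 (0.77 to 1.16) for Satb1, 0.72 (0.44 to 1.00) for Bach2 and 1.86 (1.28 to 2.48) for Dapl1. It was -0.05 (-0.17 to 0.06) for Klf2 and -0.32 (-0.52 to -0.13) for Igfbp4. Without cells with at least 10 UMIs of other lineages, the ratio of Igfbp4 turned to 0.77 (0.46 to 1.08) and that of Klf2 was 0.13 (-0.02 to 0.28), while the other 5 stayed above 0, from 0.16 for Tcf7 to 2.16 for Dapl1. Over all CD4+ T-like cells, the ABX library had more UMIs of 5 of the 7 genes per 10000, with 3 of them (Satb1, Bach2 and Dapl1) at least 1.5-fold higher, where 4.74% of all genes compared were. None of the 7 was at least 1.5-fold lower, where 5.35% of all genes compared were. The share of CD62L-high cells differed between the libraries in the same direction. At equal CD62L, with both libraries weighted to the same shares of the 5 antibody classes, the ratios were 0.33 for Lef1, 0.18 for Tcf7, 0.66 for Satb1, 0.53 for Bach2, 1.30 for Dapl1, -0.13 for Klf2 and -0.59 for Igfbp4. The same weighting was then applied without cells with at least 10 UMIs of other lineages. Dapl1 (1.36, 0.64 to 2.09), Bach2 (0.58, 0.23 to 0.94) and Satb1 (0.48, 0.25 to 0.71) had intervals above 0. Those of Lef1, Tcf7, Klf2 and Igfbp4 included 0. CD62L was equal only by class. In the open class of 40 and more antibody UMIs, all CD4+ T-like cells had a median CD62L of 56 in NW and 73 in ABX. With cells gated by antibodies and marker genes, the median ratio at equal CD62L was below 0.

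In CD8+ T-like cells the ratios were 0.44 for Lef1, 0.24 for Tcf7, 0.33 for Satb1, 0.19 for Bach2, 1.36 (0.72 to 2.06) for Dapl1, -0.13 for Klf2 and -0.64 (-0.88 to -0.41) for Igfbp4. Of the 7, 1 was at least 1.5-fold higher in ABX and 1 at least 1.5-fold lower, where 6.98% and 7.4% of all genes compared were. Without cells with UMIs of other lineages, only the interval of Dapl1 (0.76, 0.07 to 1.5) excluded 0, and Igfbp4 had -0.12 (-0.73 to 0.50). At equal CD62L and without cells with UMIs of other lineages, 6 of the 7 ratios were below 0, with only the interval of Tcf7 (-0.23, -0.45 to -0.02) excluding 0, and that of Dapl1 was 0.32 (-0.38 to 1.02). Macrophage marker UMIs summed to 96.2 per 10000 in NW and 58.4 in ABX CD8+ T-like cells, and to 43.6 and 27.8 in CD4+ T-like cells.

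**Figure D5:**
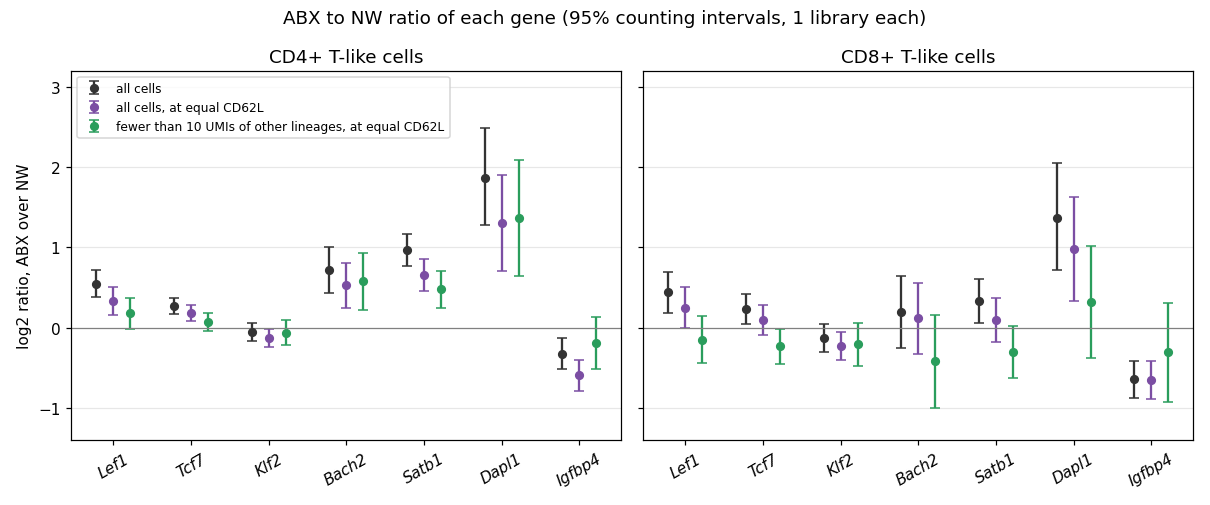
Log2 ratio of ABX to NW (y axis) for each of the 7 genes (x axis) in CD4+ (left) and CD8+ (right) T-like cells, from all cells (black), at equal CD62L (purple), and at equal CD62L without cells with at least 10 UMIs of other lineages (green). Bars are 95% counting intervals with 1 library per condition, and the CD4+ ratios of Bach2, Satb1 and Dapl1 lie above 0 in the 3 versions shown. Gated cells are not shown.

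In Treg-like cells the levels were low, and Tcf7, Satb1 and Bach2 had larger ratios of ABX to NW than in CD4+ T-like cells. Tcf7 was 0.398 in NW (67 UMIs in 387 cells) and 1.56 in ABX (84 UMIs in 167 cells), a log2 ratio of 1.97 (1.49 to 2.45), with a UMI in 8.53% and 20.4% of cells and, thinned to 1000 UMIs, in 3.17% and 9.49%. Satb1 was 0.160 (27 UMIs) and 0.722 (39 UMIs), a ratio of 2.17 (1.43 to 2.93), and Bach2 0.190 and 0.555, a ratio of 1.55 (0.78 to 2.31). These 3 were at least 1.5-fold higher in ABX, where 7.81% of all genes compared were, and 0 of the 7 were at least 1.5-fold lower, where 8.51% of all genes were. Lef1, at 0.41 (-0.10 to 0.89), and Igfbp4, at 0.29 (-0.21 to 0.77), had intervals that included 0, and Klf2 was -0.28 (-0.56 to -0.02). Without cells with UMIs of other lineages, Tcf7 had 1.78, Satb1 1.89 and Bach2 2.64 (1.47 to 3.95), and the interval of Klf2 included 0 (-0.23, -0.52 to 0.05). Among Treg-like cells with a Foxp3 UMI, 330 in NW and 114 in ABX, Tcf7 was 0.200 and 1.14 (29 and 39 UMIs, ratio 2.51, 1.78 to 3.25), so that the difference was as large in cells in which the factor that defines Treg cells was detected. Lef1 in these cells had a ratio of 0.75 (0.21 to 1.27) and Klf2 one of 0.18 (-0.12 to 0.48), in the opposite direction to all Treg-like cells. Igfbp4 was 0.491 on 71 UMIs in NW and 0.0585 on 2 UMIs in ABX. The 57 NW and 53 ABX cells without a Foxp3 UMI had a Tcf7 ratio of 0.50 (-0.15 to 1.16).

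Outside CD4+ and CD8+ T-like cells, Klf2 was lower in ABX in each lymphocyte type with at least 50 cells per library except plasma cell-like cells, with an interval below 0 in Treg-like, NK-like (-0.46, -0.67 to -0.25), NKT-like (-0.55), gdT-like (-0.46), ILC2-like (-0.41), Ighd-led (-0.51) and Ms4a1-led B cell-like cells. Macrophage-like cells had 2.13 in NW and 1.61 in ABX, so the lower Klf2 was not particular to lymphocytes. After the filter on other lineages, the intervals of Treg-like cells and of gdT-like cells (-0.15, -0.59 to 0.30) included 0, and those of NK-like (-0.47), NKT-like (-0.53), ILC2-like (-0.35) and Il18r1-led cells (-0.79) lay below it. Tcf7 was lower in ABX in NKT-like (-0.49), ILC2-like (-0.52) and NK-like cells (-0.20), the opposite direction to CD4+ T-like and Treg-like cells. After the filter these 3 ratios were -0.49, -0.37 and -0.18, and only the interval of NKT-like cells excluded 0.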

How the data were processed

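Single-cell libraries of CD45+ VAT cells, 1 from NW and 1 from ABX, were analysed. The deposited files hold raw UMI counts per cell barcode for each gene and for 10 antibodies, made by the authors with the BD Rhapsody Whole Transcriptome Assay pipeline on GRCm38 without normalization. The submitters' notes also name mm10, R 3.6.0 and Seurat 3.0.1. Cells were filtered as in the methods. Clusters came from Seurat 5.3.0 in R 4.3.3 (2000 variable genes, 30 principal components, 7 antibodies, resolution 0.6), without the 7 genes, CD62L and 1 other gene that is not reported here, and were named from marker genes. Doublets were kept, since no removal was stated. The 8% of cells of each library with the highest Scrublet scores (scanpy 1.11.5) were left out as an alternative.

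UMIs were summed over 8 combinations of library, cell type and CD62L class, of 39 to 739 cells and 230895 to 3559753 UMIs each, and tested with edgeR 4.0.16 (TMM, filterByExpr, library as block) with Benjamini-Hochberg adjustment over all genes. Each library gave both classes and so pairs them. Deviations of the same library from the group means correlated by 0.157 to 0.367 over 8937 genes. DESeq2 1.42.0 was an alternative. The fit and the ratio intervals were tested on simulated data. Alternatives were the normalization, the filter on low counts, the CD62L limit, the cell gate and the mitochondrial limit. Leaving out cells with at least 10 UMIs of other lineages or with shared barcodes, and the split by CD44, were chosen after seeing the data.

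NW and ABX have 1 library each and were compared without a test. Thinned shares are expected values at 1000 UMIs, and a count of 0 allows up to 3 counts. The text names the 7 genes, up to 4 genes of each list with the largest CD62L ratio in CD4+ T-like cells, and the 3 genes most alike to each of the 7. Il7r was named after its values were seen. The 7 genes and the lists were chosen with earlier results of these data known.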

Additional observations from a re-analysis of the deposited data

Results flagged for a closer look

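The CD62L contrast of Igfbp4 differed between CD4+ and CD8+ T-like cells in the test of the difference itself, by 2.37 on the log2 scale (edgeR adjusted p = 0.0385). Il7r, the receptor chain for interleukin 7 and one of the other naive and quiescence genes, differed in the opposite direction, by -1.11 (adjusted p = 0.0385), with a log2 ratio of CD62L-high to CD62L-low cells of 0.34 in CD4+ and 1.45 in CD8+ T-like cells. Among all 9317 genes, 4 passed this test.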

How the results depend on the processing

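The number of the 7 genes past the threshold in the CD62L comparison was 6 in CD4+ and 5 in CD8+ T-like cells. Without the pairing by library (no replicate block), it was 3 in CD4+ (Lef1, Satb1, Dapl1) and 3 in CD8+ T-like cells (Lef1, Tcf7, Satb1), and 0 for the difference between both, while 8, 43 and 0 of all genes were called in place of 150, 534 and 4. With CD62L-high taken as the top of 3 equal groups by CD62L share of antibody UMIs it was 3 in CD4+ T-like cells, and without cells with 2 UMIs of other lineages, which leaves sums of as few as 5 cells, 3 in CD8+ T-like cells (Lef1, Klf2, Igfbp4). The difference in Igfbp4 passed with edgeR and DESeq2 over all cells, but, as without the block, 0 genes of the 7 passed at 10 antibody UMIs, with the top of 3 groups, without the 8% highest Scrublet scores, without cells with 2 UMIs of other lineages or without shared barcodes. Calls over all genes ranged from 8 to 444 in CD4+, 43 to 756 in CD8+ T-like cells and 0 to 61 for the difference. DESeq2 gave no adjusted p for Dapl1 in CD4+ T-like cells. Of the calls in CD4+ T-like cells, 47.3% were higher, 41.8% with DESeq2 size factors and 24.6% without a filter on low counts. Igfbp4 in CD8+ T-like cells reversed from -0.55 to 1.97 without cells with 2 UMIs and 1.42 without cells with 10 UMIs of other lineages, and was 1.38 with gated cells and 0.18 at 10 antibody UMIs, neither past the threshold.

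With 1 library left out, which allows no test, the CD4+ log2 ratios spanned 1.38 to 1.86 for Lef1, 0.38 to 0.90 for Tcf7, 0.63 to 0.80 for Klf2, 0.41 to 1.48 for Bach2, 1.95 to 2.29 for Satb1, 3.70 to 3.94 for Dapl1 and 1.09 to 2.32 for Igfbp4, and the CD8+ ratios 1.60 to 1.86, 1.14 to 1.30, 0.78 to 0.93, -0.06 to 1.45, 1.62 to 1.72, 1.24 to 3.38 and -0.65 to -0.61.

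The median log2 ratio of CD4+ and CD8+ T-like to other lymphocyte-like cells was 1.42, 1.70 with cells gated by antibodies and marker genes, 1.66 without high Scrublet scores, 1.69 and 1.24 without cells with 2 and 10 UMIs of other lineages, 1.28 at 10% mitochondrial UMIs and 1.04 with clustering on all genes and antibodies. The median ratio of ABX to NW in CD4+ T-like cells was 0.55, and 1.03 and 0.77 without cells with 2 and 10 such UMIs. At equal CD62L it was 0.33 and reversed to -0.12 with gated cells. In CD8+ T-like cells it was 0.24, 0.0049 with gated cells, 0.045 and -0.18 without cells with 2 and 10 UMIs of other lineages, and -0.055 with clustering on all genes and antibodies, so its direction was not stable. The causes were not tested. With 1 library per condition no spread between mice can be given, and Dapl1, Bach2 and the Treg-like cells rest on few UMIs.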
